A study of Mus musculus with 12 samples.

Results

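The genes followed here through the arrays are 10 genes of the early transcriptional response: the zinc finger factors Egr1, Egr2 and Egr3, the orphan nuclear receptors Nr4a1 and Nr4a2, the Krüppel-like factors Klf2, Klf4 and Klf6, the growth factor-induced gene Ier2 and the antiproliferative gene Btg2. They are 10 of the 18194 genes named by a single-symbol probe set, and all 23 of their probe sets were used. They were chosen by name, with their intensities and their responses to Rictor deletion on these arrays already known. The responses to Rictor deletion described below are therefore given as values and not as independent evidence that these genes stand apart.

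Most of these genes are immediate early genes: their transcription starts within minutes of a growth factor, stress or calcium signal, without new protein synthesis, through serum response factor, CREB and MEF2 proteins already on the promoter. Several of the 10, though not all, are also known to restrain cell division. In mice, Egr1 holds blood stem cells in a resting state, Klf2 does the same in T cells, and joint loss of Nr4a1 and its relative Nr4a3 leads to acute myeloid leukemia. Rictor is the defining subunit of the kinase complex mTORC2, which phosphorylates AKT, and AKT in turn keeps FOXO factors, known activators of Klf2 in lymphocytes, out of the nucleus.

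RNA came from mouse leukemia cells labelled K+G– that were sorted from bone marrow after a first transplantation, once CD45.2+ cells passed 50% of the white blood cells in the recipients' blood. There were 4 groups of 3 arrays: Rictor-deleted (RictorΔ/Δ) MLL-AF9 leukemia, Rictor wild-type MLL-AF9 controls, Rictor-deleted MLL-NRIP3 leukemia and Rictor wild-type MLL-NRIP3 controls. MLL-AF9 and MLL-NRIP3 are fusions of the MLL gene, each of which gave 1 mouse model. The labels do not state what drove the deletion, the age of the mice or whether arrays of 1 group represent different animals. Errors therefore measure the spread between arrays, and any remaining host cells cannot be told from donor cells.

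The deposited values were linear intensities, and the medians of the MLL-AF9 arrays (8.16 to 8.36) and of the MLL-NRIP3 arrays (13.6 to 14.2) lay apart, so each model was fitted on its own 6 arrays. The labelled receptor Kit was present in all groups, at 143 ± 12.3 in deleted and 195 ± 36.4 in control MLL-AF9 cells and at 524 ± 102 in deleted and 341 ± 43.7 in control MLL-NRIP3 cells (SD, n = 3 each). Rictor's brightest probe set read 87.5 ± 9.26 in deleted and 86.8 ± 4.80 in control MLL-AF9 cells, and 104 ± 18.6 in deleted and 112.7 ± 25.97 in control MLL-NRIP3 cells (SD, n = 3 each). Nothing used here places its probes inside or outside the deleted part, so these values check nothing about the deletion. MLL-NRIP3 control arrays 1 and 2 stood apart from the other 4 arrays of that model: their hybridization control probe sets averaged 11.2 and 10.6 on the log2 scale, against 9.31 to 9.53, and their Gapdh 5′ to 3′ ratios were 0.562 and 0.738, against 0.881 to 0.965. The fold changes of the 10 genes and the calls of related genes in MLL-NRIP3 cells are also given without these arrays.

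Promoters of Klf and Nr4a genes and of Btg2 are shown first. A half-site for CREB, named above, can be read in all but that of Klf6. A MEF2 site can be read in those of Klf2 and Nr4a2 only. A RefSeq table of build GRCm38.p6 held start sites for 7 of the 10 genes, with 11 windows in all, each the 250 bases before the start; Egr2 accounts for 5 of them, which partly overlap. The strand is that of the gene and the sequence runs 5′ to 3′. Capitals mark the CREB half-site TGACG on either strand and the MEF2 site.
Klf2 (chr8:72318812-72319061, plus strand): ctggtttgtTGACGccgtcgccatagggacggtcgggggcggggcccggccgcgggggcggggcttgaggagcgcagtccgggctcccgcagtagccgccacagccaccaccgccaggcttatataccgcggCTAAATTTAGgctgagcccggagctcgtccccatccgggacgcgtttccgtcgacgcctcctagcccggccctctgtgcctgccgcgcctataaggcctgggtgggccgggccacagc
Klf4 (chr4:55532476-55532725, minus strand): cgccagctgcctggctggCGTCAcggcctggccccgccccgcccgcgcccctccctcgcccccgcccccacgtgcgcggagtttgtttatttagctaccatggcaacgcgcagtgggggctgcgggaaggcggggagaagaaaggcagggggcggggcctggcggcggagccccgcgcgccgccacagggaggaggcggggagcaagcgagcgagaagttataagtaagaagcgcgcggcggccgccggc
Klf6 (chr13:5861239-5861488, plus strand): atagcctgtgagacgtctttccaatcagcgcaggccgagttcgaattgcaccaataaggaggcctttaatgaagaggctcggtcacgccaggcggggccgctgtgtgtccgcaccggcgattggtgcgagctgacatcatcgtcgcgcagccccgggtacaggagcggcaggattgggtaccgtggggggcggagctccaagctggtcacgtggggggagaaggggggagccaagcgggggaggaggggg
Btg2 (chr1:134079156-134079405, minus strand): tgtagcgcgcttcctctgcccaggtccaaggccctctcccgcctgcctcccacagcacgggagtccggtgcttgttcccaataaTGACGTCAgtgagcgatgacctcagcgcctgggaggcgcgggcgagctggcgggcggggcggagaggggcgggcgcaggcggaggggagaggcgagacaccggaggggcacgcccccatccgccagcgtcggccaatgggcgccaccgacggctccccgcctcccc
Nr4a1 (chr15:101266596-101266845, plus strand): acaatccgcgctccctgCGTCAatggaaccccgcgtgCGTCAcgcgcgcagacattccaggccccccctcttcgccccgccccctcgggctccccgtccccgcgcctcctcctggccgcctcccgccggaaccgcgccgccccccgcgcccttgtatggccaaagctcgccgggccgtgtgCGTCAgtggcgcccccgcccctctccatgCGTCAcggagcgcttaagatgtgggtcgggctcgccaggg
Nr4a2 (chr2:57124004-57124253, minus strand): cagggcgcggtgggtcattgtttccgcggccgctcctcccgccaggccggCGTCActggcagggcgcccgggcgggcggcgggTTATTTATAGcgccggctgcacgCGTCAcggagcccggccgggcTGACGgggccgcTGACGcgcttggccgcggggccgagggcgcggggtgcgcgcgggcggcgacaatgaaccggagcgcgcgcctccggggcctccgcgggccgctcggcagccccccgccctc
The half-site was found in 6 of the 7 genes (8 of 11 windows), all but Klf6, whereas 17.9% of 32536 windows of the same length held it and 27.1% of the 9160 windows with a GC content of at least 60% did. Btg2 held the full palindrome TGACGTCA, in which both half-sites overlap, as did 1.56% of all windows and 2.73% of the GC-rich ones. The MEF2 site stood in the windows of Klf2 and Nr4a2 and in 2.89% of all windows (0.568% of the GC-rich ones). A CArG box, the site of serum response factor, was found among these genes in Egr2, in 4 of its 5 windows, and in 1.48% of all windows (0.939% of the GC-rich ones). The FOXO site in the form GTAAACA, searched on both strands, was in none of the 11 windows and in 3.17% of all windows (1.07% of the GC-rich ones). Other forms of the site were not searched over the windows. The form ATAAACA can be read in the Klf4 window above, on the opposite strand, where the printed letters are tgtttat. No share of all windows with that form was taken. These are letter matches and not measured binding.

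In MLL-AF9 leukemia, Klf6 was the member that rose with Rictor deletion, 1.91-fold on the fitted scale, and the other 9 did not pass the test. Klf6, a factor known to activate the cell cycle inhibitor p21, read 100.7, 99.7 and 83.7 on the 3 Rictor-deleted arrays, against 43.6, 54.8 and 29.9 on the 3 control arrays. The groups did not overlap. The means were 94.7 ± 9.53 in deleted and 42.8 ± 12.5 in control cells (SD, n = 3 each). The log2 fold change, on log2(intensity + 16), was 0.93 ± 0.14 (SE), with an adjusted p = 0.0018 in the limma fit over 12573 genes. Called at an adjusted p under 0.05, 1 of the 10 genes stood beside 8.26% of all genes tested (3.8% higher and 4.46% lower). In 1 fit of all 12 arrays with a shared spread, which called 0.939% of genes higher, the Klf6 change was not called (adjusted p = 0.48; 0.00029 to 0.013 under the other alternatives).

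Among the 5 Klf6 probe sets, 4 had all deleted MLL-AF9 arrays above all controls, and 3 of these were called on their own. Probe set 1433508_at read 38.7, 43.2 and 32.6 in deleted cells, against 19.9, 22.2 and 21.1 in controls, and 1447448_s_at read 24.5, 25.8 and 20.9 in deleted cells, against 12.4, 15.1 and 12.8 in controls. Probe set 1418280_at read 43.6, 31.1 and 34.4 in deleted cells, against 22.1, 28.3 and 28.0 in controls, the narrowest gap of the 4. The fifth, 1459718_x_at, lay between 2.72 and 3.56 on all 6 arrays, in the dim range. The sex-linked genes divided the same arrays: Xist read 98.5 ± 95.0 in deleted and 2387 ± 48.5 in control MLL-AF9 cells, and the Y-linked Eif2s3y read 162 ± 20.9 in deleted and 4.97 ± 2.46 in control cells (SD, n = 3 each). In MLL-AF9 leukemia, the Klf6 change by genotype therefore cannot be told apart from one by sex. Summed markers of mature neutrophils (9 genes measured, none under the filter) lay between 28070 and 30610 in deleted and between 9055 and 13100 in control MLL-AF9 cells, and their part in the Klf6 value was not tested. In bulk RNA, fewer cells of a type and less RNA per cell cannot be told apart.

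Of the 10 brightest probe sets, 1 had all deleted MLL-AF9 arrays above all controls and 0 had them below, where 11.4% and 15.7% of all genes did. By their brightest probe sets, the other 9 members were not called in MLL-AF9 leukemia. Ier2, a nuclear protein made early after growth stimulation, read 316.5, 299 and 269.9 in deleted cells, against 281, 282 and 209 in controls, with overlapping groups and a log2 fold change of 0.20 ± 0.11 (SE, adjusted p = 0.31). Btg2, which recruits the CCR4-NOT deadenylase and slows division, read 150.4, 125 and 143 in deleted cells, against 149, 149.6 and 124 in controls. Klf2 read 34.6, 37.2 and 30.4 in deleted cells, against 37.6, 45.0 and 29.3 in controls. The groups overlap on these brightest probe sets, and the log2 fold changes of the 8 members other than Klf6 and Ier2 lay between -0.08 and 0.04, with adjusted p between 0.50 and 0.99. Among the dimmer probe sets, 3 had all deleted MLL-AF9 arrays below all controls. Btg2 1448272_at read 68.4, 73.2 and 72.1 in deleted cells, against 82.1, 76.4 and 87.4 in controls, and was not called (adjusted p = 0.27). Nr4a2 1433423_at read 8.05, 7.02 and 6.31 in deleted cells, against 8.28, 9.94 and 10.1 in controls (adjusted p = 0.10). Nr4a2 1455034_at read 4.95, 5.27 and 4.88 in deleted cells, against 6.91, 7.45 and 6.48 in controls, and was called lower in the limma fit of every probe set (log2 fold change -0.13 ± 0.03 SE, adjusted p = 0.038). Egr1 was at the low end of the arrays, at 7.48, 6.66 and 5.73 in deleted cells, against 7.65, 4.96 and 5.84 in controls. Egr1 and Egr2 passed the filter on dim genes through their MLL-NRIP3 arrays. The median log2 fold change of the 10 genes was 0.01 in MLL-AF9 leukemia, against -0.01 over all genes tested.

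**Figure D1:**
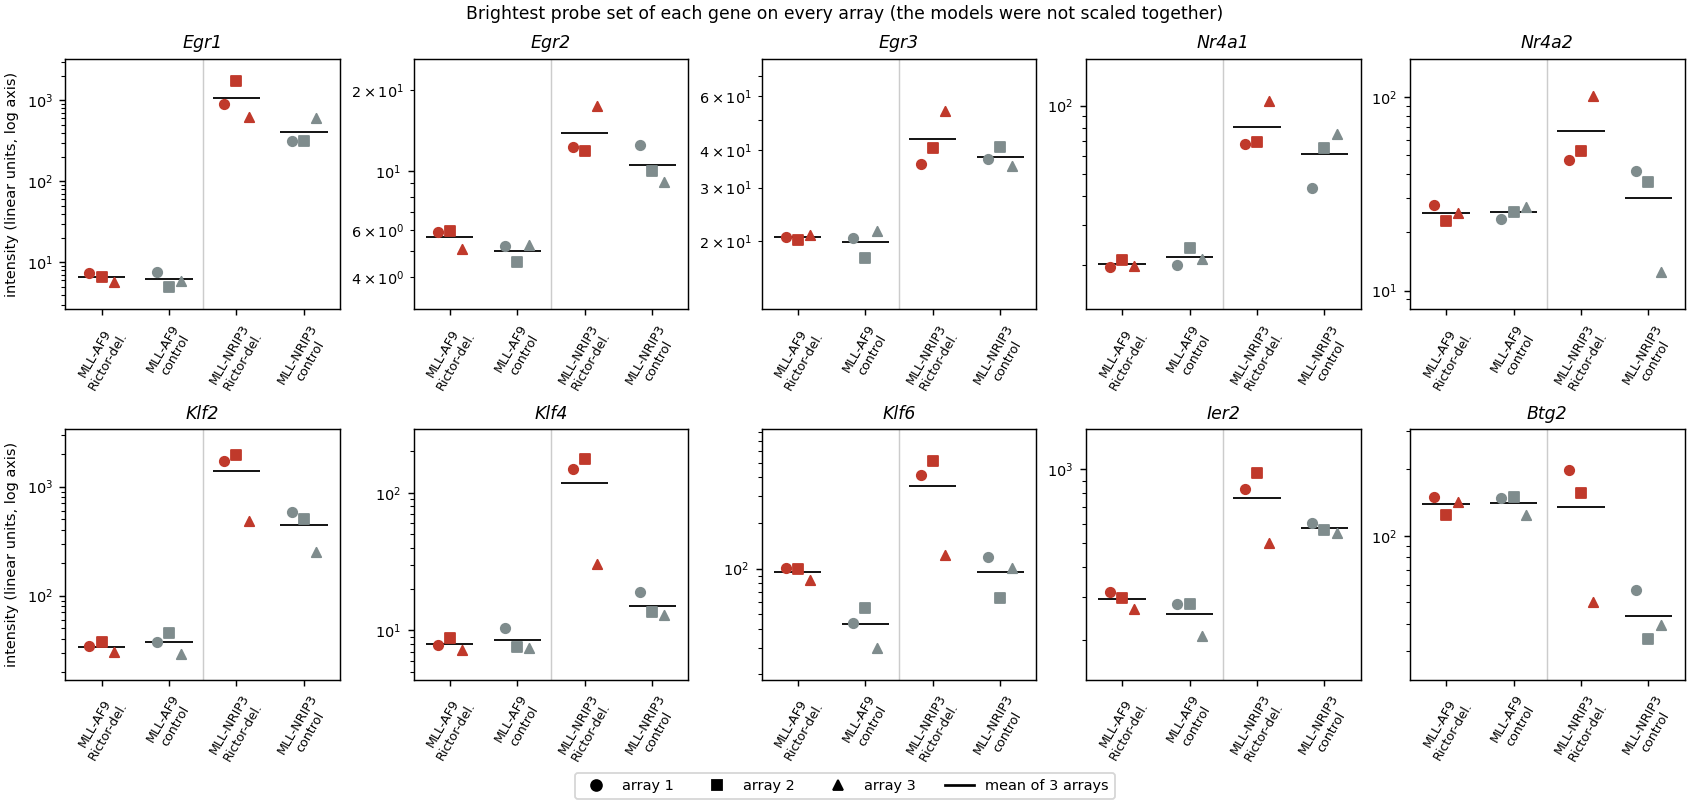
Intensity of the brightest probe set of each of the 10 genes on each array (log axis), with Rictor-deleted cells left of controls in each model; symbols are single arrays, lines are means of 3 arrays, and the models were not scaled together. Klf6 is separated by genotype in MLL-AF9 leukemia, and Egr1, Nr4a2, Klf4 and Klf6 are separated in MLL-NRIP3 leukemia.

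In MLL-NRIP3 leukemia all 10 genes had a higher mean with Rictor deleted, but the deleted arrays were far apart and no member was called. Klf4, Klf6, Klf2, Egr1, Btg2 and Nr4a2 had the largest differences, and Egr2, Egr3, Nr4a1 and Ier2 had small ones. The limma fit on the 6 arrays called 0 of 10, beside 1.53% of all genes, and 6 of the 10 had an unadjusted p under 0.05. Over all genes, 0.779% were called higher and 0.748% lower, and 7.82% were higher at an unadjusted p under 0.05. All deleted arrays lay above all controls for 4 of the 10 genes, Egr1, Nr4a2, Klf4 and Klf6, and below them for 0, where 9.7% and 12.7% of all genes did. The median log2 fold change of the 10 genes was 1.03, against -0.00 over all genes tested. These numbers describe genes picked with this contrast known.

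Klf4, which drives monocyte differentiation in myeloid cells, read 148, 175 and 30.3 on the 3 Rictor-deleted MLL-NRIP3 arrays, against 19.0, 13.6 and 12.9 on the controls. All deleted arrays lay above all controls, and array 3 was close to them. The means were 118 ± 77.1 in deleted and 15.2 ± 3.33 in control cells (SD, n = 3 each), and the log2 fold change was 1.87 ± 0.46 (SE). The other Klf4 probe set, 1417395_at, read 102, 106 and 20.4 in deleted cells, against 22.7, 16.1 and 12.1 in controls, so that its deleted array 3 lay among the controls.

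Klf6 read 417, 514 and 123 in deleted MLL-NRIP3 cells, against 119, 64.1 and 100.7 in controls. The groups did not overlap, although deleted array 3 and control array 1 nearly met. The log2 fold change was 1.55 ± 0.46 (SE). Probe sets 1433508_at, 1447448_s_at and the dim 1459718_x_at also separated the groups. Probe set 1418280_at did not: it read 150.4, 271.1 and 25.18 in deleted cells, against 27.3, 26.82 and 25.44 in controls. Its deleted array 3 was the lowest of the 6. Klf2 read 1719, 1936 and 485 in deleted cells, against 586.5, 499.7 and 249.5 in controls. Its groups overlapped through deleted array 3, and the log2 fold change was 1.45 ± 0.50 (SE).

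Egr1 read 900.1, 1729 and 626 in deleted MLL-NRIP3 cells, against 316, 317 and 607 in controls. The lowest deleted array was just above the highest control, which was array 3, and the log2 fold change was 1.30 ± 0.37 (SE). Egr2, a relative that limits T cell activation, read 12.3, 11.9 and 17.5 in deleted cells, against 12.5, 9.97 and 9.12 in controls. Egr3 read 35.8, 40.5 and 53.9 in deleted cells, against 37.4, 40.7 and 35.2 in controls. For both, 1 deleted array, array 3, lay above all controls and the rest overlapped them; the log2 fold changes were 0.17 ± 0.09 and 0.13 ± 0.14 (SE).

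Nr4a2 read 47.2, 52.7 and 101 in deleted MLL-NRIP3 cells, against 41.6, 36.2 and 12.5 in controls, with no overlap and a log2 fold change of 0.86 ± 0.31 (SE). Its 6 probe sets did not move together. Probe sets 1455034_at and 1450750_a_at also separated the groups, the first with 38.3, 34.9 and 131 in deleted cells, against 24.4, 15.95 and 12.5 in controls. Probe set 1433423_at ran the other way, with 15.3, 14.2 and 14.9 in deleted cells, against 26.2, 16.7 and 16.8 in controls, and the remaining pair overlapped. Nr4a1, the receptor also called Nur77, read 68.2, 69.2 and 105 in deleted cells, against 43.3, 65.4 and 74.99 in controls. The groups overlapped, and the log2 fold change was 0.33 ± 0.21 (SE), or -0.02 with the hybridization control signal as a term in the fit.

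Btg2 read 198.5, 156 and 50.3 in deleted MLL-NRIP3 cells, against 56.7, 34.2 and 39.6 in controls. Deleted array 3 lay among the controls, and the log2 fold change was 1.20 ± 0.39 (SE). Its other probe set, 1448272_at, read 155, 216 and 66.9 in deleted cells, against 74.2, 61.6 and 51.5 in controls, again with deleted array 3 among the controls. Ier2 read 830.1, 964 and 500.5 in deleted cells, against 603, 567 and 551 in controls, so that deleted array 3 was the lowest of the 6; its log2 fold change was 0.36 ± 0.21 (SE).

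**Figure D2:**
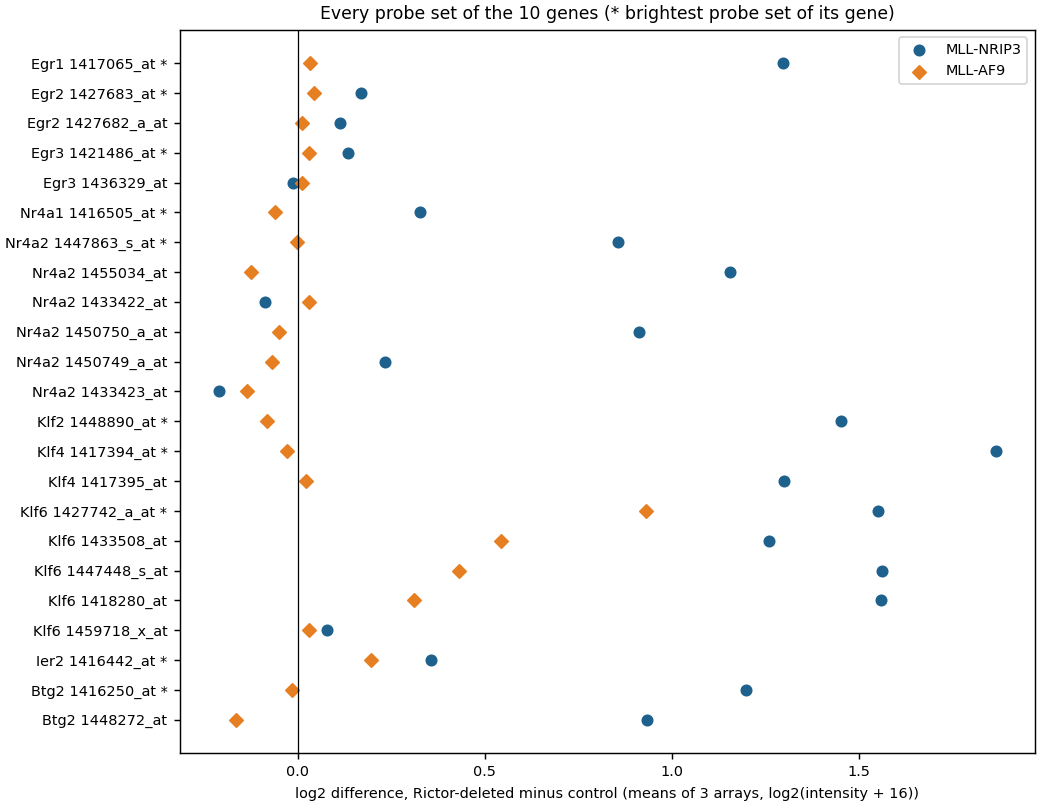
Log2 difference, Rictor-deleted minus control, of all 23 probe sets of the 10 genes (1 line each, a star for the brightest of a gene), from means of 3 arrays on log2(intensity + 16); circles are MLL-NRIP3 and diamonds MLL-AF9. In MLL-NRIP3 leukemia 10 probe sets had all deleted arrays above all controls and 1, of Nr4a2, had them below. The 10 include several probe sets each of Klf6 and Nr4a2. They also include Egr2 1427682_a_at and Klf6 1459718_x_at, which were dim and under the filter (means over all arrays 3.36 and 2.78). No share over all probe sets was taken beside this count.

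The 3 deleted MLL-NRIP3 arrays divided the 10 genes into 2 patterns. Egr1, Klf2, Klf4, Klf6 and Ier2 were highest on array 2 and Btg2 on array 1, and all 6 were lowest on array 3. Egr2, Egr3, Nr4a1 and Nr4a2 were highest on array 3. By array, the median of the 10 genes over the control mean was 0.84, 1.14 and 0.37 on the log2 scale in deleted cells, against 0.14, -0.02 and -0.07 in controls. A list of 16 handling stress genes (Fos, Jun, Hspa1a and others, all measured, none of them a member) had medians of 0.95, 1.41 and 0.32 on the same deleted arrays, against 0.08, -0.07 and 0.02 on the controls, and its summed intensity was 13310 to 19710 in deleted and 10140 to 10560 in control cells. Hspa1b, an inducible heat shock chaperone, read 40.3, 167 and 9.44 in deleted MLL-NRIP3 cells, against 10.9, 9.36 and 12.8 in controls. The 3 deleted MLL-NRIP3 arrays came in the same order by both lists, and the controls did not. The stress list holds Fos, Fosb, Jun, Junb, Jund, Atf3, Dusp1, Zfp36 and Socs3, which are early response genes like the members. The 2 lists are therefore not independent, and their shared order is no separate measure of handling. The part of handling in the members' values was not tested. In MLL-AF9 leukemia the medians of both lists stayed within 0.08 of 0 on every array.

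**Figure D3:**
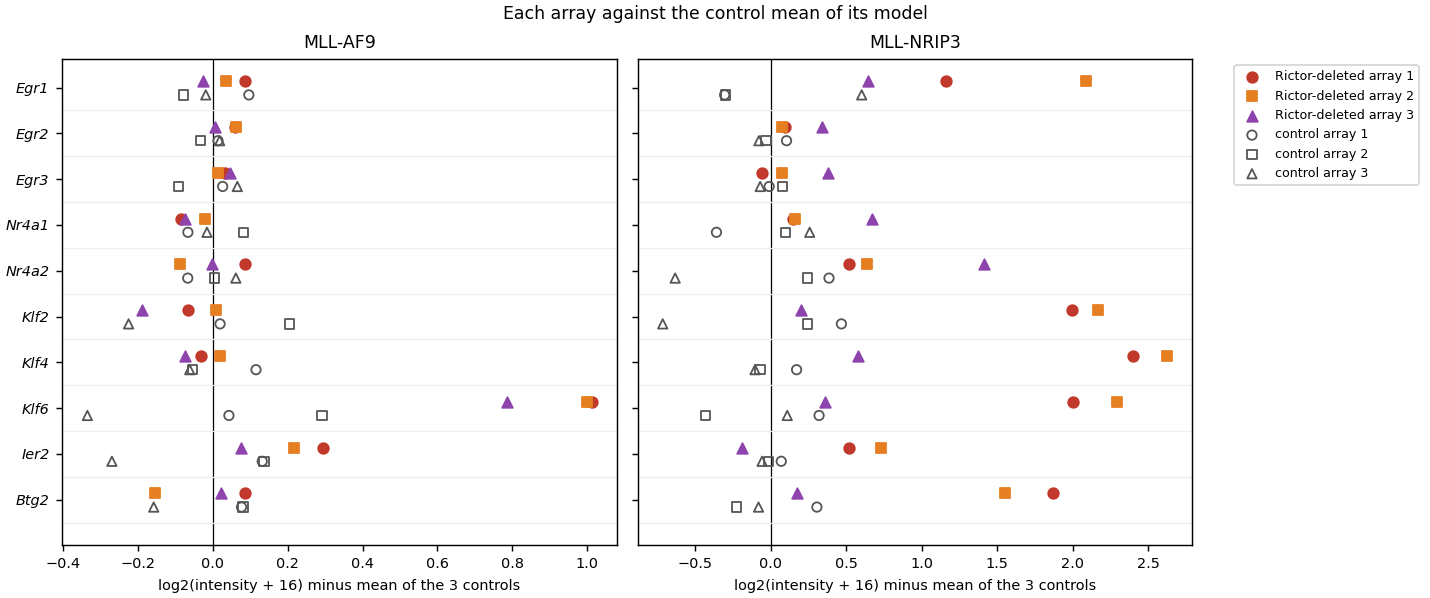
Log2(intensity + 16) of each gene on each array minus the mean of the 3 controls of its model; filled symbols are Rictor-deleted arrays, open symbols controls, and the panels of the 2 models have different horizontal scales. In MLL-NRIP3 leukemia the medians of the deleted arrays were 0.84, 1.14 and 0.37, and array 3 was lowest for 6 genes and highest for 4.

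**Figure D4:**
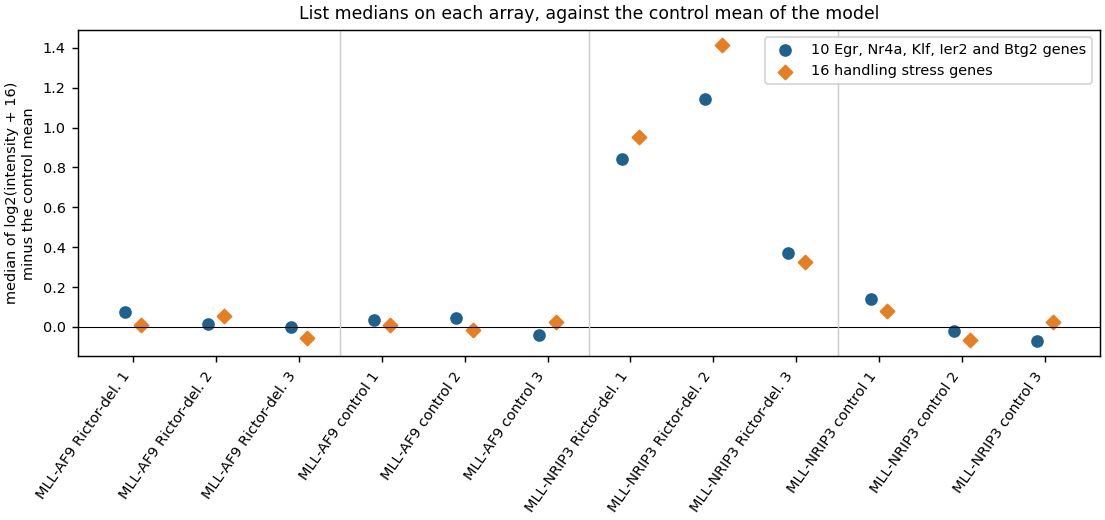
Median over the 10 genes (circles) and over 16 handling stress genes (diamonds) on each of the 12 arrays, as log2(intensity + 16) minus the control mean of the model. On the 3 deleted MLL-NRIP3 arrays both medians lie above those of the controls and are highest on array 2, whereas all MLL-AF9 medians lie within 0.08 of 0. The stress genes include immediate early genes such as Fos and Jun.

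Over the 12573 genes tested, the MLL-NRIP3 fit called 192 with all 6 arrays and 30 to 862 without single arrays. Without deleted array 3, the fit called 4 members (Btg2, Klf2, Klf4 and Klf6, with log2 fold changes of 1.71, 2.08, 2.51 and 2.15). The number of all genes called in that setting is not set beside these 4, so they cannot be weighed against it. Without control array 3 the fit called 1, Egr1, at 1.60, beside 862 of all genes tested. Without control arrays 1 and 2 together, which leaves a lone control assumed to vary like the other arrays, it called 0, and the log2 fold changes were 1.97 for Klf4, 2.17 for Klf2, 1.44 for Klf6, 1.28 for Btg2, 1.49 for Nr4a2, 0.70 for Egr1, 0.41 for Ier2, 0.24 for Egr2, 0.20 for Egr3 and 0.07 for Nr4a1. In 1 fit of all 12 arrays, 6 members were called (Egr1, Nr4a2, Klf2, Klf4, Klf6 and Btg2) beside 5.96% of genes called higher. Summed neutrophil markers lay between 1651 and 1969 in deleted and between 4871 and 21200 in control MLL-NRIP3 cells, and monocyte and macrophage markers (8 of 8 measured) between 1123 and 1658 in deleted and between 1023 and 2293 in control cells. Mast cell and basophil markers (5 of 5 measured, Fcer1a under the filter) lay between 704 and 2153 in deleted and between 449 and 551 in control cells. Most of that rise was Cpa3, at 959.5, 279.7 and 1616 in deleted cells, against 97.1, 105.6 and 110.1 in controls. Ms4a2 and Gata2 were also higher on all deleted arrays. Mcpt8 went the other way, with means of 158 in deleted and 183 in control cells and overlapping groups. The part of these cell types in the members' values was not tested.

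The response to deletion was set between the models in 1 fit with a weight for each model, as MLL-NRIP3 minus MLL-AF9. Klf4 passed the threshold, at 1.90 ± 0.41 (SE, log2), 1 of 10 called beside 4.78% of all genes, 2.25% higher and 2.53% lower. The next were Klf2 at 1.54 ± 0.48, Egr1 at 1.27 ± 0.34, Btg2 at 1.21 ± 0.37 and Nr4a2 at 0.86 ± 0.29, none of them called. Klf6, which was higher with deletion in both models, differed by 0.62 ± 0.47. The median over the 10 genes was 0.74, against 0.01 over all genes tested. The Klf4 call was lost without deleted MLL-NRIP3 array 1 (1.63) or array 2 (1.52), and without control arrays 1 and 2 together (2.00). It was also lost with the mean of its probe sets (1.59), in 1 fit of all 12 arrays and with robust moderation (1.90 in both), and when the hybridization control signal entered as a covariate (2.12). The other Klf4 probe set, 1417395_at, differed by 1.28 ± 0.41 and was not called. Since sex divides the MLL-AF9 groups and not the MLL-NRIP3 groups, a difference of responses by genotype cannot be told apart from one by sex.

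Some of these genes also had very different levels in the models, given here as a description because the models were scaled apart. After quantile normalization of all 12 arrays, Egr1 averaged 925 ± 480 in deleted MLL-NRIP3 and 8.27 ± 1.57 in deleted MLL-AF9 cells, and 346 ± 137 in MLL-NRIP3 controls and 7.38 ± 2.56 in MLL-AF9 controls (SD, n = 3 each). Egr1 lay below the array median on all 6 MLL-AF9 arrays, so its ratio rests on dim values. Klf2 averaged 1179 ± 646.5 in deleted MLL-NRIP3 and 44.4 ± 3.67 in deleted MLL-AF9 cells, and 378 ± 152 in MLL-NRIP3 controls and 47.7 ± 8.78 in MLL-AF9 controls. Ratios of 10 or more between the models were found for 0.771% of genes in deleted and 0.406% in control cells. Klf4 differed between the models in deleted cells, with a ratio of 9.13, while in control cells the ratio was 1.08 and the arrays overlapped. Btg2 went the other way: its MLL-NRIP3 over MLL-AF9 ratio was 0.65 in deleted cells, with overlap, and 0.20 in control cells, with all MLL-NRIP3 arrays below. Nr4a2 had a ratio of 1.70 in deleted cells, with MLL-NRIP3 above on all arrays, and of 0.72 in control cells, with overlap. For Ier2, Nr4a1 and Egr2 the ratios lay between 1.56 and 2.55 in both genotypes, with MLL-NRIP3 above on all arrays. Egr3 overlapped between the models, with ratios of 1.30 in deleted and 1.12 in control cells. Klf6 overlapped as well, at 2.51 in deleted and 1.43 in control cells. Such separation was common: over all genes, every MLL-NRIP3 array lay above every MLL-AF9 array for 37.2% in deleted and 33.7% in control cells, and below for 27.9% in deleted and 24.6% in control cells.

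Among other genes of the same response in MLL-NRIP3 leukemia, the AP-1 genes Fos and Jun were called higher. Of 12 AP-1 and Atf3 genes tested, 2 were called higher and none lower, with a median of 0.55. Over all genes tested, 0.779% were called higher and 0.748% lower. Fos read 2647, 2938 and 1496 in deleted cells, against 829.7, 709 and 786 in controls, a log2 fold change of 1.53 ± 0.23 (SE). Jun read 2087, 1983 and 263 in deleted cells, against 102, 86.5 and 38.1 in controls, at 3.61 ± 0.71 (SE). For both, deleted array 3 was the lowest of the deleted arrays and still above the controls, as it was for the brightest probe sets of Klf4, Klf6 and Egr1. Of 24 other immediate early genes, 3 were called higher and none lower, with a median of 0.47: Ptgs2, the inducible cyclooxygenase (0.96 ± 0.16), Plk2, a Polo-like kinase (0.72 ± 0.13), and Dusp1, a MAP kinase phosphatase (1.69 ± 0.32). Ptgs2 read 28.63, 35.38 and 15.35 in deleted cells, against 4.07, 6.24 and 6.09 in controls. In MLL-AF9 leukemia its means were 3.49 in deleted and 3.67 in control cells. It passed the filter on dim genes only through its deleted MLL-NRIP3 arrays, the group in which it was called higher. All 5 calls, of Fos, Jun, Ptgs2, Plk2 and Dusp1, were lost without control array 1, control array 2, deleted array 1 or deleted array 2. Without control arrays 1 and 2 together 0 of the 5 were called, and the log2 fold changes were 1.51 for Fos, 4.29 for Jun, 0.91 for Ptgs2, 0.85 for Plk2 and 1.65 for Dusp1.

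The family relatives were not called in MLL-NRIP3 leukemia. Beside the unadjusted counts here and in the next paragraph, 7.82% of all genes were higher at an unadjusted p under 0.05. No share of all genes lower at that p was taken. Of 10 other Krüppel-like factors 0 were called, with 2 lower at an unadjusted p under 0.05: Klf13, which read 372, 507 and 500.2 in deleted cells, against 689, 627 and 597 in controls, and Klf9, which read 145.5, 294 and 149 in deleted cells, against 348, 317 and 318.5 in controls. Their values lay below every control, opposite in direction to Klf2, Klf4 and Klf6. Of 5 Btg, Tob and Ier relatives 0 were called and 2 were higher at an unadjusted p under 0.05, Ier3 (0.60 ± 0.16) and the antiproliferative Tob1 (0.89 ± 0.28). Egr4 and the EGR corepressors Nab1 and Nab2 had log2 fold changes between 0.06 and 0.07, and Nr4a3 had 0.12. Upstream, 0 of 17 serum response, CREB and MEF2 factors were called (2 lower at an unadjusted p under 0.05), with a median of -0.15. Serum response factor itself, Srf, read 194, 206 and 261 in deleted cells, against 300.0, 281 and 293 in controls. Mef2d read 214, 207 and 205 in deleted cells, against 500.3, 546 and 280.5 in controls.

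Genes that act with Klf2 or mark rest were mostly uncalled. Of 14 KLF2 and FOXO targets 0 were called in MLL-NRIP3 cells (1 higher and 3 lower at an unadjusted p under 0.05). S1pr1, the egress receptor that Klf2 activates in T cells, read 19.5, 13.8 and 16.2 in deleted cells, against 10.5, 10.1 and 9.96 in controls. Of 20 quiescence regulators 0 were called (6 higher at an unadjusted p under 0.05), among them the p21 gene Cdkn1a, which read 149, 164 and 187 in deleted cells, against 135, 109.9 and 116 in controls. Of 13 p53 targets 1 was called, Plk2. Of 12 cytosolic chaperones 0 were called (3 higher at an unadjusted p under 0.05), with a median of 0.29. Of 8 genes of the ERK cascade 0 were called (0 at an unadjusted p under 0.05), and of 11 MAPK feedback inhibitors 0 were called (2 lower at an unadjusted p under 0.05).

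In MLL-AF9 leukemia, 0 of the 12 AP-1 and Atf3 genes were called (1 higher and 2 lower at an unadjusted p under 0.05). Beside the list counts in this paragraph, 3.8% of all genes tested were called higher and 4.46% lower in this model. No share of all genes at an unadjusted p was taken here. Among Krüppel-like relatives, Klf7 rose, at 117, 112.5 and 102 in deleted cells, against 80.3, 94.2 and 81.5 in controls (log2 fold change 0.32 ± 0.08 SE, adjusted p = 0.037). Of the other immediate early genes 3 of 24 rose and 2 fell. Pim1, a survival kinase, rose by 0.56 ± 0.10, Id2, an inhibitor of helix-loop-helix factors, by 0.63 ± 0.14 and Gadd45g by 0.17 ± 0.04 (SE). Gadd45g was dim, at 9.1, 7.78 and 9.34 in deleted cells, against 6.12, 6.70 and 5.3 in controls, and passed the filter through its MLL-NRIP3 arrays. Tnfaip3 and Rhob fell, at -0.45 ± 0.09 and -0.30 ± 0.06 (SE). Of 17 upstream factors 3 fell: Mef2c (-0.26 ± 0.06), Mef2d (-0.40 ± 0.09) and Elk3 (-0.42 ± 0.10). Of 14 KLF2 and FOXO targets 4 fell, Sesn1, Foxo3, Itgb7 and Txnip, with log2 fold changes between -0.76 and -0.26. Of 20 quiescence regulators 2 rose, the cyclin-dependent kinase inhibitors Cdkn1c (0.36 ± 0.06) and Cdkn2d (0.46 ± 0.08), and 2 fell, Meis1 (-0.41 ± 0.09) and Txnip. Of 11 MAPK feedback inhibitors 1 fell, Spry2, at -0.41 ± 0.08 (SE). For all of these MLL-AF9 calls, genotype and sex cannot be told apart.

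**Figure D5:**
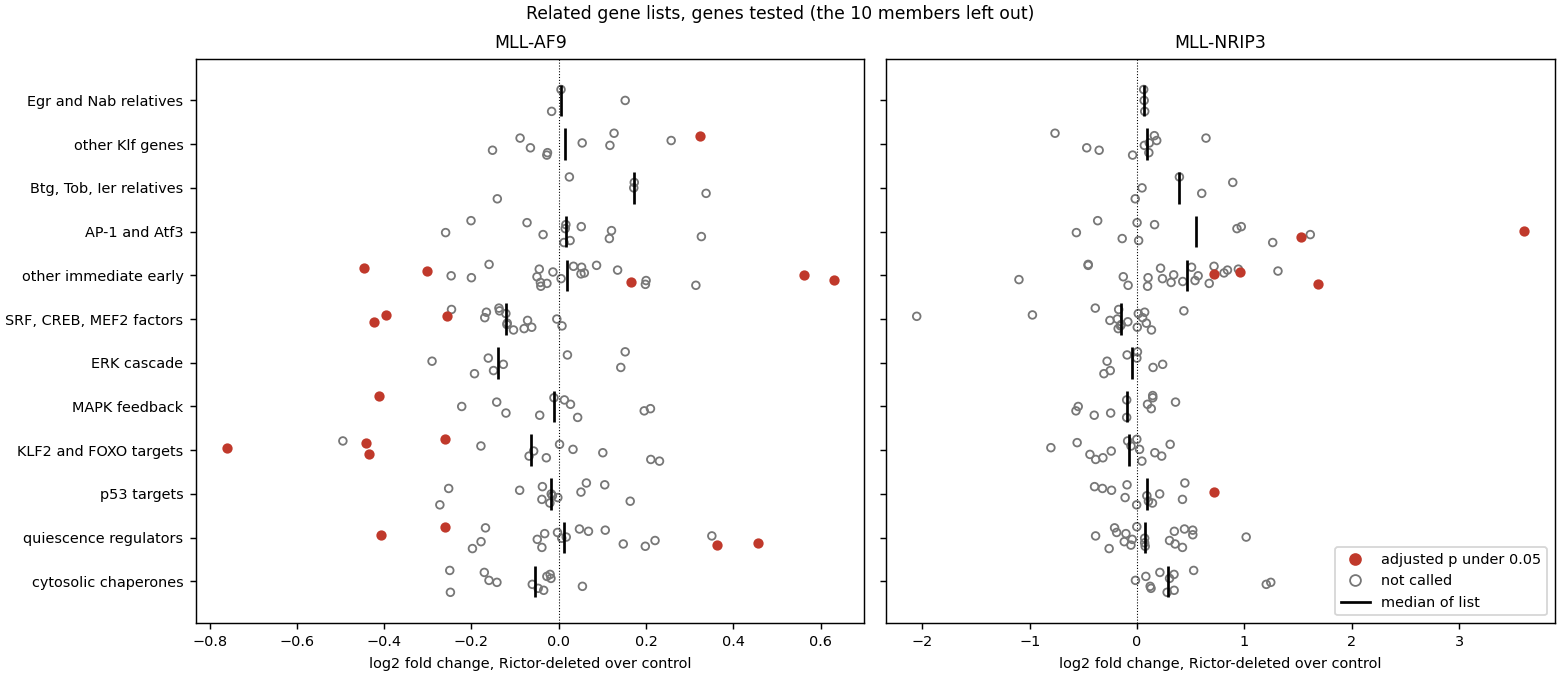
Log2 fold change, Rictor-deleted over control, of the genes tested in each related list, without the 10 genes; circles are genes (filled where called), bars are list medians, and the panels of the 2 models have different horizontal scales. The medians in MLL-NRIP3 leukemia were 0.55 for AP-1 and Atf3 and 0.47 for other immediate early genes.

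The genes most like the members were sought by the root mean square log2 difference over the 12 arrays, each gene centred within its model. Nearest to the median profile of the 10 genes were Osm, a cytokine, at 0.0918, the histone gene H3c4 at 0.0924, the kinase Plk3 at 0.0926, Gadd45a, a growth arrest gene, at 0.0999, and Gdap1 at 0.101, where the profile itself spanned a root mean square of 0.314. Osm read 214, 246 and 142.5 in deleted MLL-NRIP3 cells, against 136.5, 108.5 and 103 in controls, with the same order of deleted arrays as Klf4. Nearest to Egr1 (0.589) were Ptprg at 0.121, Pcbp3 at 0.19 and Slc24a3 at 0.201. Nearest to Klf6 (0.797) were Fosb at 0.377, Dusp1 at 0.388 and Ccdc173 at 0.413, all farther away than the neighbours of Egr1. Ptprg read 35.1, 73.4 and 13.2 in deleted MLL-NRIP3 cells, against 2.77, 3.07 and 11.4 in controls. Gdap1, Ptprg and Ccdc173 passed the filter on dim genes only through their deleted MLL-NRIP3 arrays. Their likeness to genes high on those arrays is therefore a description and no independent result.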

How the data were processed

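Sorted leukemia cells were measured on 12 Affymetrix arrays, from 7 µg of total RNA each, per the labels' protocols. Each probe set has a linear intensity on every array, as deposited by the authors; how they summarised probes, subtracted background and normalized is not stated in any source read for this work. Of 45101 probe sets, 34958 had 1 symbol in the platform annotation, 932 several and 9211 none. The brightest single-symbol probe set stood for its gene. A filter at 7.70, the 40th percentile of probe set means, removed 5621 genes and kept 12573, among them all 10 members.

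Intensities were used as log2(intensity + 16) and fitted with limma 3.58.1 in R 4.3.3 (eBayes with a trend) on the 6 arrays of each model, with 4 residual degrees of freedom. The difference between the models came from all 12 arrays with 1 weight per model. Tests were 2-sided, with Benjamini-Hochberg adjustment over all genes, called at 0.05. With 3 arrays a side, exact permutation cannot go below p = 0.1, so it was not used. Precision is limited by the number of arrays.

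The members, the lists and most choices were made with earlier results of these data known. Named genes were the members, up to 4 genes per list by smallest p, and the nearest profiles (5 to the median, 3 each to Egr1 and Klf6); Hspa1b and Gadd45g were named outside that limit, after their values were seen. Simulated data had 200 changed genes among 12573. Log2 changes of 0.5 and 1 were recovered at 82% and 100% in MLL-AF9 and at 24% and 76% in MLL-NRIP3. False calls were 8 of 199 in MLL-AF9 and 5 of 152 in MLL-NRIP3. These rates describe the simulated data alone. Some real MLL-NRIP3 control arrays stood apart from the rest of that model. Whether the rates hold for data with such arrays was not tested. Same-numbered deleted and control arrays did not deviate together, so numbers were not used as pairs. Alternatives covered pseudocounts, filters, probe set choice, normalization, moderation, a block, a covariate and omitted arrays. Promoters are from RefSeq, build GRCm38.p6. Figures were made with Python 3.11.15 and matplotlib 3.10.9.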

Additional observations from a re-analysis of the deposited data

Results flagged for a closer look

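Klf4 was called in the fit of the difference between the models' responses to Rictor deletion. MLL-NRIP3 minus MLL-AF9 was 1.90 on the log2 scale (SE 0.41), 1 of 10 members called beside 4.78% of all genes. Within MLL-NRIP3 cells Klf4 was not called (limma, adjusted p = 0.095). Its other probe set, 1417395_at, differed by 1.28 ± 0.41 (SE) and was not called. Klf4 read 148, 175 and 30.3 in deleted MLL-NRIP3 cells, against 19.0, 13.6 and 12.9 in controls, and 7.89, 8.77 and 7.22 in deleted MLL-AF9 cells, against 10.5, 7.54 and 7.41 in controls. Genotype and sex cannot be told apart in the MLL-AF9 groups, so the difference carries both. In MLL-AF9 cells all 6 values were in the dim range. The gene was picked with its response known, so the call is no independent evidence of a difference. The call was kept in 18 of 25 alternatives.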

How the results depend on the processing

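Precision rests on 3 arrays per group, and dim genes such as Egr1, Egr2 and Klf4 in MLL-AF9 cells sit near the low end of the scale. No direction of a called value was reversed under any alternative. The medians of the 10 genes ranged from -0.01 to 0.04 in MLL-AF9 and from 0.64 to 1.27 in MLL-NRIP3 leukemia. Where counts moved, the cause was not tested. Member counts without deleted MLL-NRIP3 array 3 are given without the share of all genes called in that setting. The number of members called in MLL-AF9 leukemia (1) was 2 with every probe set on its own and 0 in 1 fit of all 12 arrays. The second was an Nr4a2 probe set called lower, with dim values on all MLL-AF9 arrays. Leaving out single arrays left the number at 1. In MLL-NRIP3 leukemia (0) it was 6 in the 12-array fit, 1 with the replicate block (Klf2), and 0 to 4 when single arrays were left out, with 4 without deleted array 3 and 1 without control array 3. For the difference (1) it was 2 with a pseudocount of 64, with a filter at the 60th percentile, with every probe set on its own and with the replicate block; it was 0 with the mean of probe sets, in the 12-array fit, with robust moderation and with a covariate for hybridization control signal; single omissions gave 0 to 4, with 0 without deleted MLL-NRIP3 array 1 or 2, 2 without control array 3 and 4 without deleted array 3. Genes called over the whole table numbered 1039 in MLL-AF9, with 176 in the 12-array fit and 582 to 963 without single arrays, the lowest without deleted array 2. In MLL-NRIP3 they numbered 192, with 82 for the mean of probe sets, 1734 in the 12-array fit, 30 with the covariate, 27 without control arrays 1 and 2, and 30 to 862 without single arrays (30 without control array 2, 862 without control array 3). For the difference they numbered 601, with 162 with the covariate, 246 without control arrays 1 and 2, and 289 to 1113 without single arrays. The replicate block changed no other member's call; same-numbered arrays correlated between -0.098 and 0.025 in MLL-AF9 and between -0.135 and 0.056 in MLL-NRIP3 leukemia.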
